A study of Mus musculus with 12 samples.

Results

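A set of 51 genes that make ribosomes, from RNA polymerase I to the assembly factors of both ribosomal subunits, was followed through the DN2, DN3 and DN4 stages of mouse thymocytes. The genes were listed by name and role, with earlier results of these data known. Each was represented by its brightest probe set among those that the platform annotation gives a single gene symbol. Of the 51 genes, 49 were measured among 18193 genes with such a probe set, and all 49 stood among the 11174 genes above the filter on dim signals. Npm3 and Mrto4 had no probe set with a single symbol listed here and were not analysed.

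The cells were CD4-CD8- (double negative) thymocytes of female C57BL/6 mice aged 5 to 6 weeks, sorted by flow cytometry as DN2 (CD44+CD25+), DN3 (CD44-CD25+) and DN4 (CD44-CD25-). Magnetic columns had first removed CD4+ and CD8+ cells, and the sort gate kept cells negative for TCRgamma-delta, NK1.1, CD3, CD8 and CD4. In each of 4 sorts the thymocytes of 4 mice formed a single cell source for all 3 stages, so that 16 mice gave 12 arrays, 4 per stage, and arrays with the same number share their mice. RNA was amplified in 2 cycles and hybridised to Affymetrix Mouse Genome 430 2.0 arrays. The labels name no transgene, mutation or treatment in any group.

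RNA polymerase I transcribes the ribosomal RNA (rRNA) precursor in the nucleolus. Small nucleolar ribonucleoproteins (snoRNPs) modify and help to cut this precursor, a large particle called the small-subunit processome assembles on it, and further factors mature the small and the large subunit until both are exported. In the thymus, DN3 cells that pass selection for the T-cell receptor beta chain grow and divide rapidly as they become DN4 cells, and growing cells need new ribosomes.

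The mean signal of the arrays, with the brightest and dimmest 2% left out, ran between 129 and 233, and no array was dropped. Values below are log2 signals after quantile normalization, and a difference is the later stage minus the earlier one with its standard error (SE) from limma. A gene was called at an adjusted p under 0.05 (Benjamini-Hochberg over all 11174 genes), and 4 arrays per stage limit the precision. Cd44, the marker that falls after DN2, averaged 9.44 ± 0.53 in DN2, 5.76 ± 0.33 in DN3 and 5.62 ± 0.63 in DN4 (SD, n = 4 each). Il2ra, which encodes CD25, averaged 11.20 ± 0.11 in DN2, 10.46 ± 0.19 in DN3 and 6.90 ± 0.53 in DN4, while Cd4 was under the filter and Cd8b1 averaged 3.16 ± 0.56, 4.52 ± 0.47 and 8.28 ± 0.37 across the same stages. Summed signals of 5 mast cell genes (1 above the filter) ran between 2742 and 3786 in DN2, 75.4 and 230 in DN3, and 29.5 and 68.2 in DN4. Those of 12 myeloid genes (10 above the filter) ran between 1214 and 2229 in DN2, 407 and 505 in DN3, and 146 and 253 in DN4, and those of 5 natural killer cell genes (3 above the filter) between 1803 and 2032, 452 and 745, and 94.8 and 114. Summed signals of 3 gamma-delta T cell genes ran between 1329 and 1490 in DN2, 551 and 922 in DN3, and 401 and 621 in DN4, and those of 6 B cell genes (4 above the filter) between 2202 and 3495, 2784 and 3028, and 4429 and 4858. Ighm made up most of the B cell sum, at means of 11.37, 11.38 and 12.10. Of the others above the filter, Cd79b averaged 7.57, 7.37 and 6.98, Pax5 4.55, 4.52 and 4.10, and Ms4a1 4.73, 3.65 and 4.94. Under the filter, Cd79a averaged 4.12, 3.79 and 4.56 and Ebf1 3.44, 3.79 and 3.77. Sums of 8 dendritic cell genes (4 above the filter) ran between 324 and 753, 214 and 360, and 261 and 884 in these stages. The log2 ratio of the control probe set near the end of the Gapdh transcript to that near its start averaged 1.39 ± 0.32 in DN2, 1.04 ± 0.17 in DN3 and 1.16 ± 0.21 in DN4. What part these RNAs and RNA length have in the results below was not tested. In bulk samples such as these, a change in the share of cells and a change in RNA per cell cannot be told apart.

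The promoters of 4 members are shown because they carry the contrast described next: the leading members of the polymerase and of the small-subunit factors do not hold the letters CACGTG, while a factor of each subunit does. CACGTG is the E-box that Myc and Max, among other basic helix-loop-helix proteins, can bind. It reads the same on both strands, so that a single search covers both. The 250 bases before each annotated start are from RefSeq (GRCm38.p6), read 5′ to 3′ on the gene's strand, and capitals mark CACGTG. Polr1b lies at chr2:129100746-129100995 on the plus strand, Rrp9 at chr9:106477059-106477308 on the plus strand, Nop2 at chr6:125131633-125131882 on the plus strand, and Utp18 at chr11:93885767-93886016 on the minus strand.
Polr1b: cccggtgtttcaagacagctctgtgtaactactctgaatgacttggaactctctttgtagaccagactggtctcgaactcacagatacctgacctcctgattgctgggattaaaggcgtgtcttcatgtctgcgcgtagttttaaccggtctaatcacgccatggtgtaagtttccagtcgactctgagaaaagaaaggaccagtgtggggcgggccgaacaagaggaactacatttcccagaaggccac
Rrp9: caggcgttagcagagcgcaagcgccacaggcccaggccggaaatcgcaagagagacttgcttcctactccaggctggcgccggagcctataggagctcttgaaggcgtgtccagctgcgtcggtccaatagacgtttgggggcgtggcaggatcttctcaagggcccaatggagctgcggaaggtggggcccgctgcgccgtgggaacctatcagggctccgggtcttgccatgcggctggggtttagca
Nop2: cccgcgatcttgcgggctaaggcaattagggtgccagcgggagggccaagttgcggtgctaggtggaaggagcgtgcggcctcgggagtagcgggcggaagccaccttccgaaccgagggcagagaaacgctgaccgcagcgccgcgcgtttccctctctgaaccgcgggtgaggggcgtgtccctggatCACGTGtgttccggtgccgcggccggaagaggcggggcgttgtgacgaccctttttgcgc
Utp18: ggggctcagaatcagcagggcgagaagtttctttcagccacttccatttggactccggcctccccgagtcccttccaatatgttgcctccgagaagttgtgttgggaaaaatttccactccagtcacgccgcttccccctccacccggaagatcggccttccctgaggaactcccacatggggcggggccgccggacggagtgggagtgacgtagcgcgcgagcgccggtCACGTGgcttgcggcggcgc
The motif began 60 bases before the start of Nop2 and 20 bases before that of Utp18. A promoter was given for 44 of the 51 members, and in windows of 300 bases (250 before to 50 after the start) 8 of the 44 held CACGTG, or 18.2%, against 11.8% of 9100 genes tested and 8.09% of all 27025 genes with a promoter. The 8 were Imp4, Ltv1, Tsr1, Utp18, Utp20 and Wdr43 among 16 small-subunit factors, and Nop2 and Pes1 among 15 large-subunit factors. None of the 4 polymerase I genes, 4 nucleolar scaffold genes or 5 snoRNP genes with a window held it. Of the members with a promoter, 7 of 35 that rose by DN4 held it, against 1 of 7 that were not called. A match of letters is a description of the window and not a measured site.

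Between DN2 and DN4 most of the set rose. In DN4 against DN2, 39 of 49 members were called higher and 0 lower, where 17.9% of all genes were called higher and 16.6% lower. Because the list was made with earlier results of these data known, the shares of all genes here and below serve as description only. The median difference was 0.58 over the members and 0.06 over all genes tested, and the members' differences ran between 0.05 and 1.30. All 49 members were above 0, as were 55.0% of all genes, and in 36 members every DN4 array stood above every DN2 array (17.0% of all genes). All 39 called members were higher in DN4 in 4 of 4 sorts. Most changes were modest: 5 members (Polr1b, Rrp9, Polr1a, Noc3l and Bop1) reached 2-fold, and 15 called members changed by less than 1.5-fold. With the sort as a block, 43 members were called higher (background 24.9%), the added ones being Brix1, Gtpbp4, Imp3 and Noc4l.

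The scale of the arrays bears on the size of these shifts. In the signals as deposited, without normalization between arrays, the median of all genes stood at 0.13 for DN3 minus DN2, -0.41 for DN4 minus DN3 and -0.29 for DN4 minus DN2. The members' medians were then 0.52, -0.15 and 0.31, so that they lay above those of all genes by 0.38, 0.26 and 0.60, against 0.35, 0.14 and 0.52 after quantile normalization. In the deposited signals 46 of 49 members were higher in DN4 than in DN2 and 6 were called (Polr1a, Polr1b, Nolc1, Rrp9, Bop1 and Noc3l). The shares of all genes above 0 and called in the deposited signals are not given here, for this or the other comparisons. The direction of DN4 minus DN3 depended on the scaling: 46 of 49 members were above 0 after quantile normalization and 6 of 49 in the deposited signals, where 45 of 49 still exceeded the median of all genes.

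**Figure D1:**
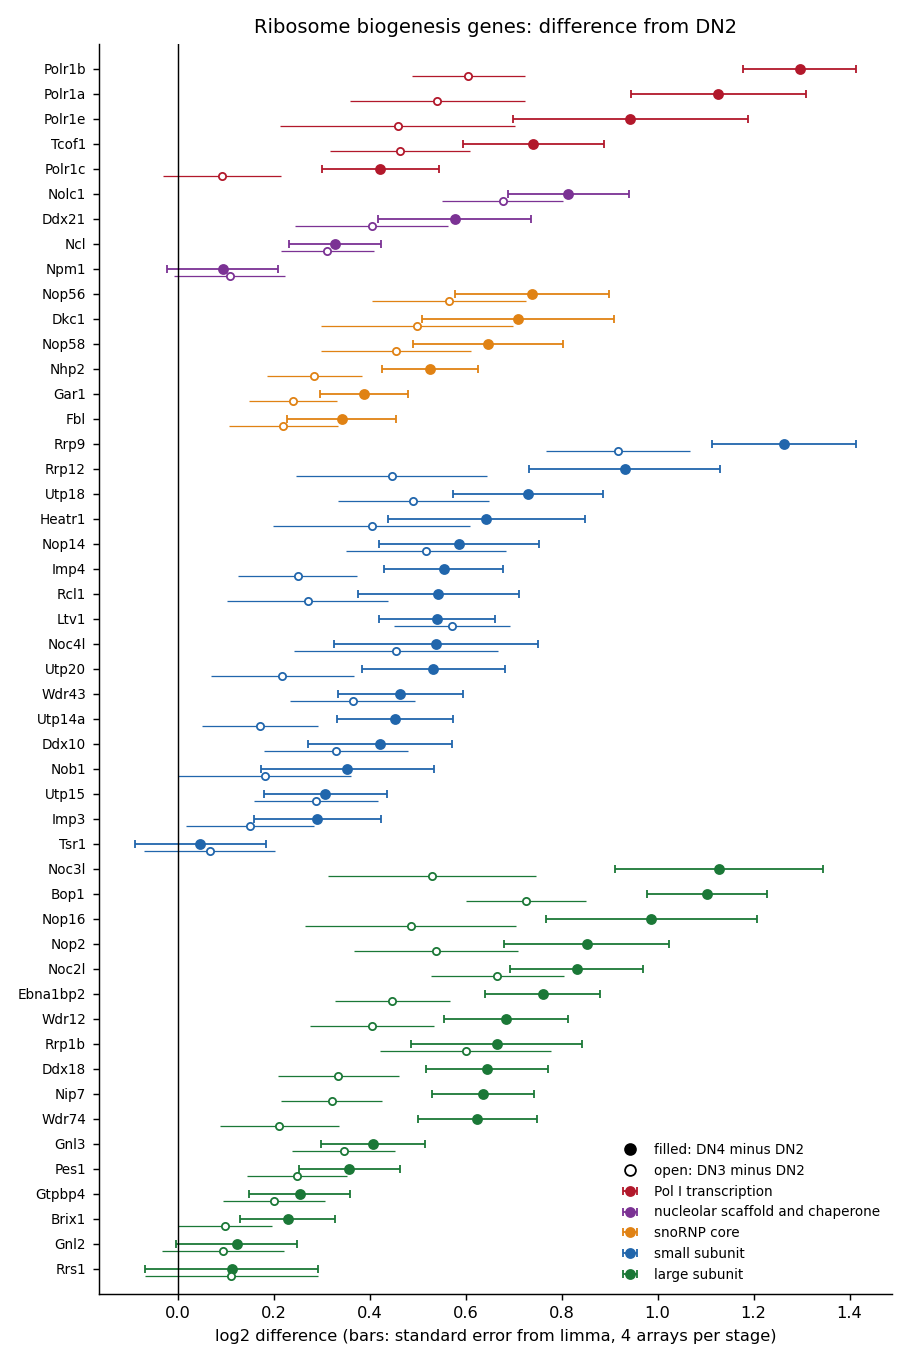
Difference in log2 signal from DN2 for the 49 members, ordered by role, with filled points for DN4 minus DN2, open points for DN3 minus DN2, and bars for the standard error from limma (4 arrays per stage, quantile-normalized signals). Polr1b at 1.30 and Rrp9 at 1.26 lie farthest to the right, and Tsr1, Npm1, Rrs1 and Gnl2 lie nearest to 0. In signals without normalization between arrays, 46 of the 49 filled points would lie above 0.

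The DN3 minus DN2 difference exceeded the DN4 minus DN3 difference in 36 of 49 members, against 48.1% of all genes. In DN3 against DN2, 9 members rose and 0 fell (background 4.76% higher and 6.45% lower): Polr1b, Nolc1, Nop56, Rrp9, Ltv1, Bop1, Noc2l, Ebna1bp2 and Rrp1b. The median was 0.36 over the members and 0.02 over all genes, with all 49 members above 0, and in 21 members every DN3 array stood above every DN2 array (8.10% of all genes). In the blocked fit 28 members were called higher (background 9.96%). The calls of Rrp1b, Nop56 and Ebna1bp2 sat near the threshold: among 12 fits that each left out 1 array, that of Rrp1b ended in all but those without DN2 array 2 or DN3 array 4 (adjusted p of 0.0571 to 0.129 where it ended), that of Nop56 in all but those without DN2 array 2, DN4 array 1 or DN4 array 3 (0.0517 to 0.107), and that of Ebna1bp2 without DN2 array 1 or 2 or DN3 array 1, 2 or 4 (0.0606 to 0.0830). Without normalization between arrays, Bop1, Noc2l, Nolc1 and Rrp9 were the 4 called, and the share of all genes called there is not given here.

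The step from DN3 to DN4 gave few calls in the fit without the sort as a block. In DN4 against DN3, 3 members rose (Polr1b, Polr1a and Wdr74) and 0 fell, and this share of 6.12% was near the background of 7.17% of all genes called higher (8.99% lower). The members' median was 0.19 and that of all genes 0.05. In 11 of 49 members every DN4 array stood above every DN3 array (12.5% of all genes). With the sort as a block 13 of 49 members rose (background 15.4%), the 10 added ones being Polr1c, Polr1e, Nhp2, Rrp9, Imp4, Utp20, Bop1, Nip7, Noc3l and Nop16. Of these 10, Nhp2, Noc3l and Nop16 were above 0 in the deposited signals (up to 0.06) and the other 7 below. The call of Polr1a ended in the fits without DN2 array 2, 3 or 4, DN3 array 1 or 2, or DN4 array 2, 3 or 4 (adjusted p of 0.0513 to 0.124), and that of Wdr74 without DN3 array 1, 2 or 3 or any of the DN4 arrays (0.0572 to 0.108). Polr1b alone remained called without DN3 array 2, DN4 array 2 or DN4 array 4, and without normalization between arrays no member was called. Cell cycle genes moved with this step after quantile normalization: 9 of 17 rose in DN4 against DN3 (median 0.44), against 7.17% of all genes. In DN3 against DN2, 0 of 17 rose (median 0.01), against 4.76% of all genes. The summed signals of the cell cycle genes, also quantile-normalized, ran between 58860 and 64109 in DN4 and between 45808 and 52913 in DN3. Their step in the deposited signals, where the DN4 minus DN3 median of all genes was -0.41, is not given here. The part of cell division in the members' shifts was not tested.

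Whether a member's step into DN4 differed from its step into DN3 was tested as a contrast of its own. In limma's fit no member passed (background 4.93% called in either direction). At an unadjusted p under 0.05 stood 3 of 49 members, against 2088 of all 11174 genes. With the sort as a block, Ltv1 (-0.60 ± 0.15, adjusted p = 0.0384) and Nolc1 (-0.54 ± 0.14, adjusted p = 0.0383) had the smaller step into DN4 (background 12.3%). Rrp9 was called without DN2 array 2 (-0.73 ± 0.18, adjusted p = 0.0434) and in the deposited signals (-1.15 ± 0.32, adjusted p = 0.0459), against -0.57 ± 0.26 with all arrays. Stage means followed the order DN2, DN3, DN4 in 46 of 49 members, as in 30.2% of all genes, and Npm1, Tsr1 and Ltv1 had their highest mean in DN3. In Polr1b, Nhp2, Rrp9, Wdr12, Nip7 and Ebna1bp2 the arrays of all 3 stages stood apart in that order, as in 1.88% of all genes. This holds for the brightest probe sets. Another probe set above the filter differed by -0.18, -0.21 and -0.10 in DN3 minus DN2 for Wdr12, Nip7 and Ebna1bp2, and by 0.68 for Nhp2. Polr1b and Rrp9 had 1 probe set each.

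**Figure D2:**
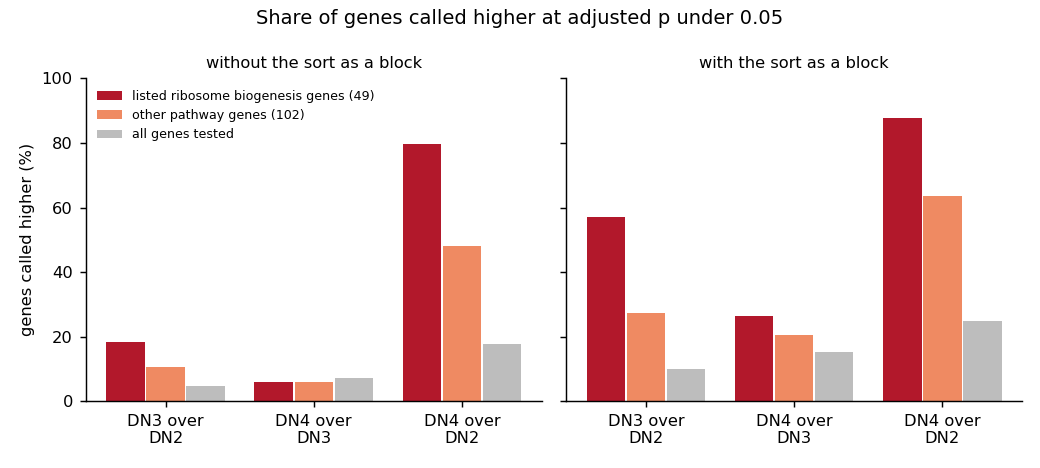
Percent of genes called higher (adjusted p under 0.05) for the 49 listed ribosome biogenesis genes, the 102 other genes of the pathway and all 11174 genes tested, for each comparison (later stage over earlier), without and with the sort as a block. The listed genes reach 79.6% in DN4 over DN2 against 17.9% of all genes, while in DN4 over DN3 without the block they stand at 6.12% against 7.17%. With the block 13 of the 49 are called in DN4 over DN3, where 15.4% of all genes are.

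All 5 polymerase I genes rose between DN2 and DN4, with a median difference of 0.94. Of all genes, 17.9% were called higher in DN4 against DN2, 4.76% in DN3 against DN2 and 7.17% in DN4 against DN3. With the sort as a block these shares were 24.9%, 9.96% and 15.4%, and they apply to each role group below. Of the 5 polymerase I genes, 1 rose in DN3 against DN2 and 2 in DN4 against DN3, or 4 and 4 with the sort as a block. The medians at these steps were 0.46 and 0.49, and 0.60 and -0.04 in the deposited signals, where 2 of the 5 genes were above 0 in DN4 minus DN3. Between DN2 and DN4 the deposited median was 0.53, and only Polr1a and Polr1b were called. Polr1b encodes the second largest subunit, which forms the catalytic centre with Polr1a. Its log2 signals were 7.95, 7.70, 7.77 and 7.58 on the DN2 arrays, 8.19, 8.31, 8.39 and 8.53 on the DN3 arrays, and 9.03, 9.09, 8.90 and 9.16 on the DN4 arrays. No stage overlapped another. In the fit without the block Polr1b was the 1 member called at both steps, and with the sort as a block 8 more were (Polr1a, Polr1e, Nhp2, Rrp9, Bop1, Nip7, Noc3l and Nop16). Its differences were 0.61 ± 0.12 for DN3 against DN2 (limma, adjusted p = 0.00592), 0.69 ± 0.12 for DN4 against DN3 (adjusted p = 0.00258) and 1.30 ± 0.12 for DN4 against DN2, or 2.46-fold (adjusted p = 7.63e-06). In the deposited signals its DN4 minus DN3 difference was 0.20 ± 0.23, which was not called.

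Polr1a, the largest subunit, measured 7.52, 7.72, 7.90 and 8.01 in DN2, 8.02, 8.14, 8.59 and 8.57 in DN3, and 8.57, 9.15, 8.78 and 9.15 in DN4. The DN2 arrays all lay below the others, and the lowest DN4 array lay within the DN3 range. Polr1a rose by 0.59 ± 0.18 in DN4 against DN3 (adjusted p = 0.0478) and by 1.13 ± 0.18 in DN4 against DN2, or 2.18-fold (adjusted p = 0.000602), and its DN3 against DN2 difference of 0.54 ± 0.18 was called only with the sort as a block (adjusted p = 0.0816, or 0.0148 with the block). The DN4 against DN3 call ended in the deposited signals (0.08 ± 0.25, adjusted p = 0.839), with arrays centred on their median (adjusted p = 0.201) and with the mean of its probe sets (0.27 ± 0.14, adjusted p = 0.237), and in 4 more alternatives at 0.0522 to 0.102. Polr1c, a subunit shared with RNA polymerase III, measured 10.26, 10.17, 10.16 and 10.38 in DN2, 10.59, 10.22, 10.12 and 10.41 in DN3, and 10.81, 10.61, 10.68 and 10.55 in DN4. The DN2 range of Polr1c lay inside its DN3 range, while every DN4 array exceeded every DN2 array, at 0.42 ± 0.12 (adjusted p = 0.0187, or 0.0515 without DN4 array 1). Tcof1, treacle, which supports polymerase I transcription at the rRNA genes, measured 9.16, 9.41, 9.06 and 9.16 in DN2, 9.90, 9.65, 9.51 and 9.57 in DN3, and 10.25, 10.04, 9.70 and 9.76 in DN4. Its DN2 arrays stood below all others, with 0.74 ± 0.15 for DN4 against DN2 (adjusted p = 0.00217). Polr1e, whose product is a polymerase-specific subunit, split by sort: arrays of sorts 3 and 4 exceeded those of sorts 1 and 2 at every stage, by 0.63 on average. With the sort as a block it rose by 0.46 ± 0.09 in DN3 against DN2 (adjusted p = 0.0101) and by 0.49 ± 0.09 in DN4 against DN3 (adjusted p = 0.00621), calls that the fit without the block did not make (0.279 and 0.198). In the deposited signals its DN4 minus DN3 difference was -0.04 ± 0.29.

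**Figure D3:**
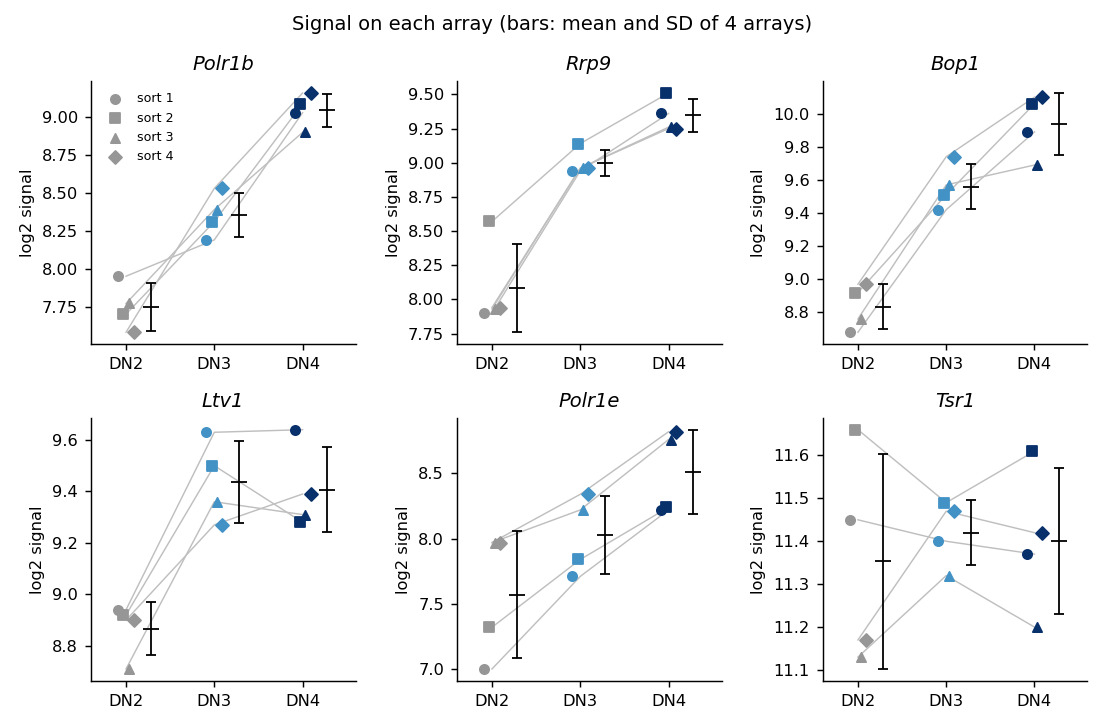
Log2 signal on each of the 12 arrays for Polr1b, Rrp9, Bop1, Ltv1, Polr1e and Tsr1, with a symbol and a grey line for each sort and bars for the mean and SD of 4 arrays. Polr1b and Rrp9 separate all 3 stages, Ltv1 is level between DN3 and DN4, Polr1e runs in parallel lines of sorts 3 and 4 above sorts 1 and 2, and Tsr1 shows no order of stages. Signals are quantile-normalized. In the deposited signals the DN4 minus DN3 differences of Polr1e, Bop1, Rrp9, Tsr1 and Ltv1 are below 0 (-0.04, -0.05, -0.12, -0.32 and -0.48). That of Polr1b is 0.20.

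Of the nucleolar scaffold and chaperone genes, 3 of 4 rose between DN2 and DN4 (median 0.45), 1 in DN3 against DN2 and 0 in DN4 against DN3. In the deposited signals the DN4 minus DN2 median was 0.31, and Nolc1 alone was called between these stages. The gene called in DN3 against DN2 was Nolc1, a chaperone of snoRNPs, which measured 10.34, 10.49, 10.18 and 10.42 in DN2, 11.11, 11.01, 10.89 and 11.13 in DN3, and 11.25, 11.28, 10.86 and 11.29 in DN4. All DN2 arrays were lower than the rest, and DN4 array 3 lay below every DN3 array while the other DN4 arrays lay above them all. Nolc1 rose by 0.68 ± 0.13 in DN3 against DN2 (adjusted p = 0.00429). Nucleolin, Ncl, an abundant rRNA-binding protein, measured 12.53, 12.59, 12.53 and 12.80 in DN2, 12.90, 12.94, 12.89 and 12.97 in DN3, and 12.99, 12.91, 12.87 and 12.99 in DN4. DN3 and DN4 overlapped above DN2, with 0.33 ± 0.10 for DN4 against DN2 (adjusted p = 0.0204, or 0.0501 to 0.0528 without DN2 array 3, DN4 array 1 or DN4 array 4). Ddx21, an RNA helicase that couples rRNA transcription to processing, measured 9.39, 9.69, 10.07 and 10.01 in DN2, 10.06, 10.18, 10.25 and 10.27 in DN3, and 10.37, 10.39, 10.10 and 10.60 in DN4. Its ranges touched between all stages except DN4 and DN2, where the difference was 0.58 ± 0.16 (adjusted p = 0.0146). Npm1, nucleophosmin, was not called in any comparison: its means were 13.11 ± 0.17 in DN2, 13.22 ± 0.07 in DN3 and 13.21 ± 0.14 in DN4.

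Every snoRNP core gene rose between DN2 and DN4: 6 of 6, with a median of 0.59, 1 of them in DN3 against DN2 (5 with the sort as a block) and 0 in DN4 against DN3 (1 with the block). In the deposited signals all 6 were above 0 in DN4 minus DN2 (median 0.47), but none was called (limma, adjusted p of 0.0561 to 0.406). The DN4 minus DN3 median was then -0.11. Nop56 and Nop58 are the paired core proteins of the box C/D particles, in which fibrillarin (Fbl) adds methyl groups to rRNA. Nop56 measured 10.19, 10.81, 10.48 and 10.56 in DN2, 11.43, 11.01, 10.93 and 10.93 in DN3, and 11.47, 11.29, 11.09 and 11.14 in DN4. Every DN3 and DN4 array exceeded the DN2 arrays, and sort 1 gave the lowest DN2 value and the highest value at both later stages. Nop56 rose by 0.57 ± 0.16 in DN3 against DN2 (adjusted p = 0.0411) and by 0.74 ± 0.16 in DN4 against DN2 (adjusted p = 0.00389). Nop58 measured 10.10, 10.42, 10.58 and 10.86 in DN2, 11.05, 10.80, 10.86 and 11.07 in DN3, and 11.26, 11.10, 10.93 and 11.26 in DN4. Its highest DN2 array lay within the DN3 range, and DN4 exceeded DN2 by 0.65 ± 0.16 (adjusted p = 0.00713). Fbl rose by 0.34 ± 0.11 in DN4 against DN2 (adjusted p = 0.0348), a call that ended in 6 of 12 fits that left out 1 array (without DN2 array 1, 3 or 4 or DN4 array 1, 2 or 4, up to 0.0910).

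Dyskerin (Dkc1), Gar1 and Nhp2 belong to the box H/ACA particles, which convert uridines of rRNA to pseudouridine. Gar1 measured 10.91, 11.02, 10.96 and 11.01 in DN2, 11.16, 11.24, 11.14 and 11.32 in DN3, and 11.30, 11.45, 11.35 and 11.35 in DN4. Only DN3 and DN4 overlapped, and the DN4 against DN2 difference was 0.39 ± 0.09 (adjusted p = 0.00626). Nhp2 measured 11.62, 11.64, 11.83 and 11.81 in DN2, 11.97, 11.93, 12.01 and 12.12 in DN3, and 12.21, 12.26, 12.17 and 12.36 in DN4. No stages of Nhp2 overlapped, the total difference was 0.53 ± 0.10 (adjusted p = 0.00166), and each step was called with the sort as a block alone (adjusted p = 0.0282 for DN3 against DN2 and 0.0397 for DN4 against DN3). Dkc1 rose by 0.71 ± 0.20 in DN4 against DN2 (adjusted p = 0.0160).

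Small-subunit factors numbered 17, of which 12 rose between DN2 and DN4 (median 0.54), 2 in DN3 against DN2 and 0 in DN4 against DN3, with 14, 7 and 3 when the sort was a block. The 3 of 17 called with the block in DN4 against DN3 were near the 15.4% of all genes. Between DN2 and DN4 the deposited signals gave a median of 0.20, with 16 of 17 above 0 and Rrp9 alone called. Rrp9, a protein of the U3 snoRNP, which is part of the processome, had the largest DN3 against DN2 difference of all 49 members. It measured 7.90, 8.57, 7.93 and 7.94 in DN2, 8.94, 9.14, 8.96 and 8.96 in DN3, and 9.36, 9.51, 9.26 and 9.25 in DN4. The stages did not overlap, and sort 2 was the highest sort at each of them. Rrp9 rose by 0.92 ± 0.15 in DN3 against DN2 (adjusted p = 0.00194) and by 1.26 ± 0.15 in DN4 against DN2, or 2.40-fold (adjusted p = 6.14e-05).

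Further processome components rose by DN4. Utp18 measured 9.59, 9.79, 9.90 and 10.28 in DN2, 10.38, 10.29, 10.30 and 10.56 in DN3, and 10.41, 10.62, 10.54 and 10.91 in DN4. DN2 lay below the later stages and sort 4 was highest throughout, with 0.73 ± 0.16 for DN4 against DN2 (adjusted p = 0.00365) and 0.49 for DN3 against DN2, called only with the sort as a block (adjusted p = 0.0657, or 0.00733 with the block). With the mean of its probe sets, the other of which lay under the filter, DN4 against DN2 was 0.13 ± 0.22 and was not called (adjusted p = 0.688). The helicase-associated factor Utp14a measured 10.26, 10.49, 10.01 and 10.22 in DN2, 10.24, 10.43, 10.45 and 10.55 in DN3, and 10.67, 10.74, 10.58 and 10.80 in DN4. DN2 and DN3 overlapped, DN4 stood above both, and the DN4 against DN2 difference was 0.45 ± 0.12 (adjusted p = 0.0121). Imp4, a U3-associated protein, measured 9.37, 9.57, 9.54 and 9.77 in DN2, 9.61, 9.70, 9.94 and 9.99 in DN3, and 10.06, 10.09, 10.06 and 10.25 in DN4. Here too every DN4 array exceeded all DN2 and DN3 arrays, with 0.55 ± 0.12 for DN4 against DN2 (adjusted p = 0.00457) and 0.30 ± 0.08 for DN4 against DN3 with the sort as a block (adjusted p = 0.0224, and 0.115 without it). The direction of the second turned in the deposited signals (-0.12 ± 0.21), and the first was 0.33 ± 0.13 with the mean of its probe sets (adjusted p = 0.0663). Rrp12, which in yeast takes part in the export of both subunits, measured 6.31, 6.34, 6.62 and 6.64 in DN2, 7.09, 7.22, 6.42 and 6.97 in DN3, and 7.81, 7.26, 7.05 and 7.52 in DN4. Sort 3 lay apart in DN3, inside the DN2 range, and DN4 against DN2 was 0.93 ± 0.20 (adjusted p = 0.00349).

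Of the late small-subunit factors Ltv1, Tsr1 and Nob1, Ltv1 alone was called. Ltv1, which acts in the export and final assembly of the small subunit, measured 8.94, 8.92, 8.71 and 8.90 in DN2, 9.63, 9.50, 9.36 and 9.27 in DN3, and 9.64, 9.28, 9.31 and 9.39 in DN4. Both later stages stood above DN2 and overlapped each other, and Ltv1 rose by 0.57 ± 0.12 in DN3 against DN2 (adjusted p = 0.00911) with -0.03 ± 0.12 for DN4 against DN3. In the deposited signals the latter was -0.48 ± 0.22, which was not called, where the median of all genes was -0.41. Tsr1, another late factor, averaged 11.35 ± 0.25 in DN2, 11.42 ± 0.08 in DN3 and 11.40 ± 0.17 in DN4 and was not called. Nob1, the endonuclease that makes the last cut of the small-subunit rRNA, averaged 9.70 ± 0.39, 9.88 ± 0.12 and 10.05 ± 0.19 in these stages and was not called (0.35 ± 0.18 for DN4 against DN2, adjusted p = 0.149). Utp15, Imp3 and Noc4l were the other small-subunit factors not called, with differences of 0.31, 0.29 and 0.54, and Imp3 and Noc4l were called with the sort as a block (adjusted p = 0.0319 and 0.00231). The calls of Ddx10, Heatr1 and Rcl1 in DN4 against DN2 ended in 10, 6 and 4 of 12 fits that left out 1 array. For Ddx10 only those without DN2 array 3 or 4 kept it (up to 0.125). Heatr1 lost it without DN2 array 1, 3 or 4 or DN4 array 1, 2 or 4 (up to 0.0795) and with the mean of its probe sets (0.45 ± 0.21, adjusted p = 0.121), and Rcl1 without DN2 array 3 or 4 or DN4 array 1 or 2 (up to 0.0708).

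Large-subunit factors also numbered 17, of which 13 rose between DN2 and DN4 (median 0.64), 4 in DN3 against DN2 and 1 in DN4 against DN3, with 15, 10 and 5 when the sort was a block. The 1 called in DN4 against DN3 without the block, or 5.88%, was near the 7.17% of all genes. Between DN2 and DN4 the deposited signals gave a median of 0.38, with 15 of 17 above 0 and only Bop1 and Noc3l called. The difference between the small- and large-subunit groups was not tested. Bop1, Pes1 and Wdr12 form the PeBoW complex, which is needed to process the large-subunit rRNA. Bop1 measured 8.68, 8.92, 8.76 and 8.97 in DN2, 9.42, 9.51, 9.57 and 9.74 in DN3, and 9.89, 10.06, 9.69 and 10.10 in DN4. DN2 stood clear of both later stages, and DN4 array 3 alone lay within the DN3 range. Bop1 rose by 0.73 ± 0.13 in DN3 against DN2 (adjusted p = 0.00273) and by 1.10 ± 0.13 in DN4 against DN2, or 2.15-fold (adjusted p = 4.45e-05). Of its partners, Wdr12 rose by 0.68 ± 0.13 in DN4 against DN2 (adjusted p = 0.00167, or 0.26 ± 0.15 and 0.196 with the mean of its probe sets), and Pes1 by 0.36 ± 0.10 (adjusted p = 0.0195, or 0.0528 to 0.0543 without DN2 array 3 or DN4 array 1).

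Noc2l, which accompanies the large-subunit precursor in the nucleolus, measured 8.83, 9.20, 9.05 and 8.87 in DN2, 9.71, 9.76, 9.58 and 9.57 in DN3, and 10.12, 9.89, 9.53 and 9.75 in DN4. The DN2 arrays were lowest and DN4 surrounded DN3, with 0.67 ± 0.14 for DN3 against DN2 (adjusted p = 0.00816). With the mean of its probe sets this call ended (0.24 ± 0.15, adjusted p = 0.369), the other probe set above the filter being at -0.19. Ebna1bp2, a nucleolar assembly factor, measured 9.84, 10.06, 10.14 and 10.17 in DN2, 10.57, 10.54, 10.36 and 10.53 in DN3, and 10.84, 11.05, 10.68 and 10.69 in DN4. Its stages did not overlap, and it rose by 0.45 ± 0.12 in DN3 against DN2 (adjusted p = 0.0318) and by 0.76 ± 0.12 in DN4 against DN2 (adjusted p = 0.000493). Both calls ended with the mean of its probe sets, at 0.12 ± 0.20 (adjusted p = 0.794) and 0.44 ± 0.20 (adjusted p = 0.119). Nip7 measured 9.76, 9.82, 9.75 and 9.89 in DN2, 10.27, 10.07, 9.95 and 10.21 in DN3, and 10.58, 10.39, 10.33 and 10.46 in DN4. These 3 stages also stood apart, and the total difference was 0.64 ± 0.11 (adjusted p = 0.000695), against -0.02 on its other probe set. Wdr74, which acts with a nucleolar ATPase in early large-subunit maturation, measured 10.10, 9.83, 9.64 and 9.73 in DN2, 9.86, 10.00, 10.08 and 10.20 in DN3, and 10.46, 10.38, 10.38 and 10.57 in DN4. DN2 and DN3 overlapped and DN4 stood above both, and Wdr74 rose by 0.41 ± 0.12 in DN4 against DN3 (adjusted p = 0.0412), against 0.01 ± 0.21 in the deposited signals.

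Among the remaining large-subunit factors, Noc3l, the partner of Noc2l, rose by 1.13 ± 0.22 in DN4 against DN2, or 2.19-fold (adjusted p = 0.00182). Nop16 rose by 0.99 ± 0.22 (adjusted p = 0.00454), the rRNA methyltransferase Nop2 by 0.85 ± 0.17 (adjusted p = 0.00246), and the GTPase Gnl3, or nucleostemin, by 0.41 ± 0.11 (adjusted p = 0.0119). Rrs1, Gnl2, Brix1 and Gtpbp4 were not called, at 0.11, 0.12, 0.23 and 0.25. Of these, Brix1 (adjusted p = 0.0446) and Gtpbp4 (adjusted p = 0.0156) were called with the sort as a block.

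**Figure D4:**
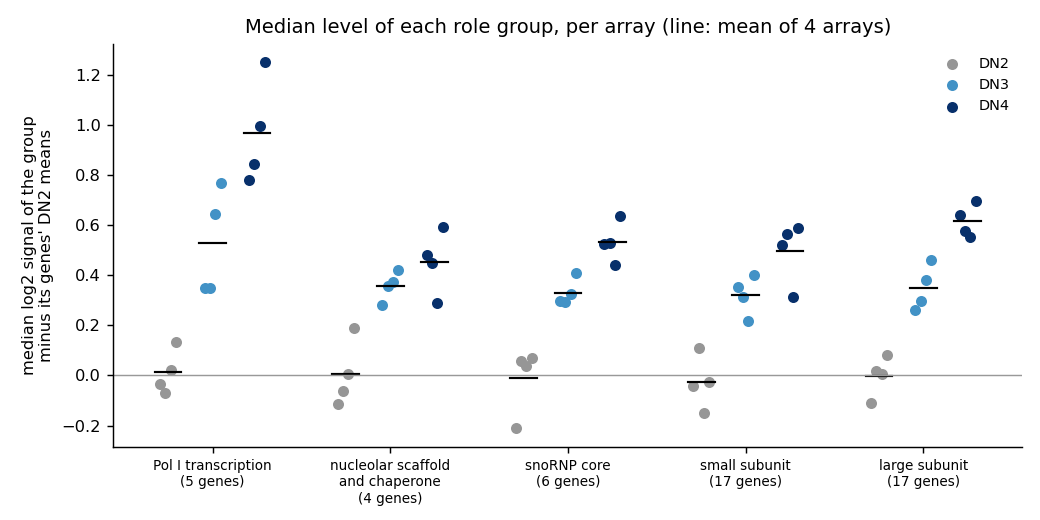
Median over the genes of each role of their log2 signal minus that gene's DN2 mean, with a point for each array in DN2, DN3 and DN4 and a line for the mean of 4 arrays. The polymerase I genes average 0.97 in DN4 and the other roles 0.45 to 0.62, and no DN4 array falls within a DN2 range. In the deposited signals the median DN4 minus DN3 difference of each role is below 0 (-0.25 to -0.04).

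The pathway holds other genes, of which 102 with a probe set above the filter were listed by the same roles, also with earlier results known. In DN3 against DN2, 11 rose (10.8%, against 4.76% of all genes) and 0 fell, with a median of 0.23. In DN4 against DN3, 6 rose (5.88%, below the 7.17% of all genes) and 2 fell, with a median of 0.14. In DN4 against DN2, 49 rose (48%, against 17.9% of all genes) and 5 fell, with a median of 0.40. When the sort was a block the counts were 28 and 0, 21 and 6, and 65 and 6 (9.96%, 15.4% and 24.9% of all genes higher). Utp6, of the small-subunit processome, rose by 1.56 ± 0.15 in DN4 against DN2 (adjusted p = 1.52e-05). Lyar, a nucleolar growth-regulating protein, rose by 1.08 ± 0.12 (adjusted p = 4.64e-05), and Bysl, bystin, a small-subunit factor, by 1.15 ± 0.14 (adjusted p = 7.51e-05). Znhit6 and Znhit3 are assembly factors of box C/D snoRNPs. Znhit6 rose by 0.64 ± 0.15 in DN3 against DN2 (adjusted p = 0.0143), and Znhit3 rose by 0.65 ± 0.13 in DN4 against DN3 (adjusted p = 0.00510). A factor that fell was Urb2, linked to large-subunit assembly in yeast, by 0.94 ± 0.12 on the log2 scale in DN4 against DN2 (adjusted p = 0.000133).

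Of 12 further genes of its subunits and initiation factors, none was called at either single step, and in DN4 against DN2 3 rose and 1 fell (median 0.34), or 25% and 8.33% against 17.9% and 16.6% of all genes. With the sort as a block 1 fell in DN4 against DN3, and 5 rose and 1 fell in DN4 against DN2. The polymerase-associated Cd3eap rose by 0.76 ± 0.21 (adjusted p = 0.0162), the initiation factor Rrn3 by 0.54 ± 0.15 (adjusted p = 0.0148) and the activator Ubtf by 0.48 ± 0.12 (adjusted p = 0.00714). Baz2a, part of a complex that silences rRNA genes, was the gene with a decrease, at -0.61 ± 0.17 (adjusted p = 0.0143). Polr1d, Twistnb and Znrd1, further subunits, differed by 0.12, -0.10 and -0.01 and were not called. Myc, a known activator of ribosome biogenesis, was lower in DN4 than in DN2 (-1.40 ± 0.41, adjusted p = 0.0204), as was its relative Mycn (-2.11 ± 0.20, adjusted p = 1.31e-05), while their partner Max was higher (0.60 ± 0.21, adjusted p = 0.0461). None of these 3 was called in DN3 against DN2. Myc varied within DN2, at 9.53, 10.59, 8.61 and 8.38 on its arrays, against 7.53, 7.52, 7.98 and 8.48 in DN4. Its ranges overlapped, and in sort 4 Myc was not lower in DN4. The DN2 and DN4 ranges of Max overlapped too, while those of Mycn did not.

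**Figure D5:**
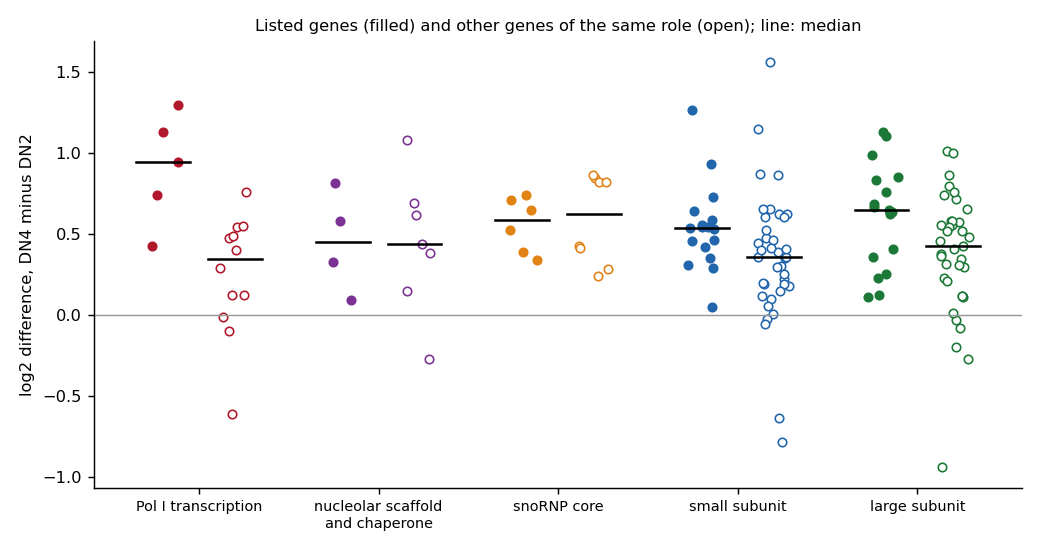
Difference in log2 signal, DN4 minus DN2, for the 49 listed genes (filled) and the 102 other pathway genes (open) of each role, a point per gene and a line for each median, on quantile-normalized signals. The listed polymerase I genes have a median of 0.94 and the other polymerase I genes 0.34, with Baz2a at -0.61. Utp6 at 1.56 and Urb2 at -0.94 are the extremes.

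The size of a difference depended on the probe set. Another probe set above the filter existed for 34 members, and 44 of 48 such probe sets were higher in DN4 than in DN2. In 22 of the 34 members another probe set differed more than the brightest, and in 12 every other differed less. Ncl differed by 0.33 on its brightest probe set and by 0.23 to 0.94 on its others, and Tsr1, not called, by 0.05 on its brightest and 0.53 on the other. The opposite held for Bop1, with 1.10 and 0.28, and for Noc2l, with 0.83 and 0.07. Wdr12, Heatr1 and Nip7 each had another probe set near 0, at -0.08, -0.08 and -0.02. The highest value of any gene on any array was 13.71, and Npm1 and Ncl lay close to it, at up to 13.36 and 12.99.

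Sorts 1 and 2 and sorts 3 and 4 differed for some members at every stage. Polr1e, Npm1, Dkc1, Noc4l and Rrs1 were higher in both of sorts 3 and 4 at all stages, by 0.63, 0.21, 0.38, 0.52 and 0.40 (7.58% of all genes). Tcof1, Fbl, Heatr1, Imp3 and Rcl1 were higher in both of sorts 1 and 2 (7.21% of all genes). The members' medians within each pair of sorts were 0.38 for DN3 minus DN2, 0.26 for DN4 minus DN3 and 0.58 for DN4 minus DN2 in sorts 1 and 2, and 0.33, 0.16 and 0.54 in sorts 3 and 4. The labels give these sorts no batch.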

How the data were processed

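The arrays hold linear intensity values per probe set that the authors deposited, and the submitters' processing notes name GCOS. The software version, signal algorithm and scaling were not given in the sources used here. Of 45101 probe sets, 64 controls were left out. In the platform annotation 34958 probe sets name 1 gene, 932 several and 9211 are not listed with a gene. Symbols of 34754 were updated through Entrez IDs (GRCm38.p6 tables) and 204 kept.

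Intensities were quantile-normalized, an offset of 5.68 (the 25th percentile) was added, and log2 taken. Each gene took its brightest single-symbol probe set and was tested if above the table's median (log2 4.71) on at least 4 arrays. limma 3.58.1 (R 4.3.3) fitted 3 stage means over 12 arrays (9 residual degrees of freedom), two-sided, with Benjamini-Hochberg adjustment over 11174 genes. The fit without the block was also run on simulated data. Its arrays were drawn independently, without a sort effect, so it does not bear on the pairing of the arrays by sort. Python 3.11.15, pandas 2.3.3 and matplotlib 3.10.9 were used.

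The labels state that arrays with the same number come from the same cells, and the 12 pairs of arrays from one sort had correlations of 0.25 to 0.34 in their deviations from the stage means, against -0.24 to 0.11 in 36 pairs from different sorts. The sort therefore pairs the arrays, and a fit blocked by sort (6 residual degrees of freedom) was the main alternative. P-values of the fit without the block measure the spread between 4 sorts within a stage. Those with the block measure the spread that remains after the sort is fitted. Other alternatives changed normalization, offset, filter, probe set rule, variance model, sorts and single arrays.

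The members and lists were chosen with earlier results of these data known. Values on every array were given for members with the smallest adjusted p: in each role up to 3 for DN3 against DN2, 3 for DN4 against DN3 and 2 for DN4 against DN2. Of the other pathway genes, up to 4 called ones per comparison were named by the same measure, and the remaining named genes were chosen after their values were seen. Promoters are from RefSeq (GRCm38.p6). Sets were not given a test of their own.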

Additional observations from a re-analysis of the deposited data

Results flagged for a closer look

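In 147 groups of 4 arrays (49 members in 3 stages), 11 had 1 array far from the other 3 by Dixon's criterion, and chance alone marks about 1 in 20 groups. In DN4, Nolc1 stood at 10.86 on array 3 (the others 11.25 to 11.29), Imp3 at 10.45 on array 1 (9.94 to 10.01), Imp4 at 10.25 on array 4 (10.06 to 10.09) and Rrp1b at 9.48 on array 1 (9.64 to 9.67). In DN3, Nop56 stood at 11.43 on array 1 (10.93 to 11.01) and Rrp9 at 9.14 on array 2 (8.94 to 8.96). In DN2, array 2 was high for Rrp9 at 8.57 (7.90 to 7.94) and for Nop2 at 8.37 (7.99 to 8.04), array 3 was low for Ltv1 at 8.71 (8.90 to 8.94) and for Brix1 at 10.90 (11.00 to 11.02), and array 4 was high for Gtpbp4 at 10.77 (10.59 to 10.61). The 11 values fall on arrays of all 4 sorts.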

How the results depend on the processing

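No difference of a member called in the fit without the block changed sign under any alternative that was run. Most of the DN4 against DN3 calls added by the block were below 0 in the deposited signals. Polr1a, Polr1b, Rrp9 and Bop1 were called in DN4 against DN2 in all 25 alternatives. The counts of members called moved as follows, against 9 for DN3 against DN2, 3 for DN4 against DN3, 39 for DN4 against DN2 and 0 for the change of step. With the replicate block by sort they were 28, 13, 43 and 2. Without normalization between arrays they were 4, 0, 6 and 1, and with arrays centred on their median 16 for DN3 against DN2 and 1 for DN4 against DN3. A filter at the 75th percentile gave 17 and 5 for these steps, no filter 1 for DN4 against DN3, and trend and robust variance 18 and 6. With sorts 1 and 2 alone the counts were 0, 0 and 17, and with sorts 3 and 4 alone 1, 0 and 22, with fewer arrays by construction. Of all genes, 250, 220 and 1808 of 11318 were called in sorts 1 and 2, and 419, 175 and 2215 of 11468 in sorts 3 and 4. For the alternatives in normalization, filter and variance model, the share of all genes called is not given here. Leaving out each array in turn gave 7 to 10, 1 to 4, 33 to 39 and 0 to 1. The lowest count for DN4 against DN3, 1, came without DN3 replicate 2, DN4 replicate 2 or DN4 replicate 4, and the counts of 2 without DN2 replicate 3 or 4, DN3 replicate 1 or 3, or DN4 replicate 1 or 3. The fit on only the arrays compared gives no change of step. Except where stated, the cause was not tested. All 49 members lay above the filter on dim signals.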
